A study of Mus musculus with 5 samples.

Results

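The genes described here are 10 tubulin genes: the alpha tubulins TUBA1A, TUBA1B, TUBA1C, TUBA4A and TUBA8, the beta tubulins TUBB, TUBB2A, TUBB4B and TUBB6, and the gamma tubulin TUBG1. They were chosen by symbol, are 10 of the 50867 gene models in the deposited table, and were read in all 5 libraries, singly and as sums over the 5 alpha and the 4 beta genes. The alpha sum was dominated by TUBA1C, which was low in 1 library, and TUBA1A was nearly absent from another. In the comparisons made with S_PXT1, where TUBA1C was low, the other alpha tubulins were not higher by as much. The same held for the low TUBA1A in the comparisons made with WT_K118R. From S_PXT1 to S_PXT1_K118R, TUBA1A was lower, and TUBA1C was higher by more. From PMSCV to S_PXT1, TUBA1A and TUBA1B were higher, but by less than TUBA1C was lower. Whether one paralog was switched for another was not tested, and the genes are described below as single genes and sums.

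The series title names oncogenic fusions in paediatric leukaemia and mRNA stability. Total RNA was sequenced from Ba/F3, an established line of mouse pro-B cells that needs interleukin-3 to grow and is often used to test whether an introduced gene transforms cells. All 5 groups were Ba/F3 cells infected with lentivirus, and each group was 1 library. The groups are named PMSCV (a vector name, with no insert named), S_PXT1, S_PXT1_K118R, WT and WT_K118R, where K118R is the usual notation for a lysine-to-arginine change. The labels do not spell out which protein WT is, and no source used here gives clones, selection or culture time. With 1 library per group there were no replicates, so no test was made: every interval below covers counting error only, and a difference between libraries cannot be told apart from a difference between single cultures. In bulk RNA, fewer cells that express a gene and less of its RNA per cell cannot be told apart.

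Alpha and beta tubulin pair into the dimers that polymerise into microtubules, which carry cargo and form the mitotic spindle. Gamma tubulin does not enter the wall of the microtubule; it sits in a ring complex that starts new ones. Vertebrate genomes hold several alpha and several beta genes whose proteins are very alike and differ mainly at their tails and in the tissues that use them. Cells also hold tubulin mRNA in check: when free dimers are plentiful, the protein TTC5 recognises the start of the nascent tubulin chain on the ribosome and recruits SCAPER and the CCR4-NOT deadenylase, which degrade the mRNA. The 3 alpha genes TUBA1A, TUBA1B and TUBA1C are neighbours on 1 chromosome in mouse and in human.

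How alike these 3 are bears on every value below, because a read from a shared stretch cannot be given to 1 gene. The table lists human gene models although the cells are from mouse, and no source used here says how reads that match several models were counted. Mouse coding sequences were therefore compared with each other, from GENCODE M21 on GRCm38 (9 of the 10 genes matched by symbol and TUBB under its mouse name Tubb5). The coding sequence of Tuba1a was 98.3% identical to that of Tuba1b and 97.1% identical to that of Tuba1c, and Tuba1b and Tuba1c were 97.9% identical. Over the 1323 coding positions before the first gap in their alignment, the 3 genes differed at 32.

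In mouse coding sequence, 76.9% of the 50-base windows of Tuba1b were found unchanged in Tuba1c, and 58.2% of those of Tuba1a in Tuba1b. No 50-base window was shared between any of these 3 genes and Tuba4a, to which they were between 84.7% and 85.2% identical. The beta genes were between 80.2% and 84.5% identical to each other, and Tuba1a was 53.8% identical to Tubb5. Sharing of reads was therefore possible, in mouse sequence, mainly inside the group of Tuba1a, Tuba1b and Tuba1c, and their sum does not depend on how shared reads are split among them, though it would on their being discarded. These coding sequences do not include untranslated ends, and the human models were not compared in sequence.

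The table's coordinates are human, of a build that no source used here names. There TUBA1B lies on human chromosome 12 from 49127782 to 49131397 and TUBA1A from 49184796 to 49189324, both on the minus strand, and TUBA1C from 49188736 to 49274603 on the plus strand. TUBA1A and TUBA1C overlap there by 589 bases on opposite strands, and no source used here says whether the counting used strand, so reads in the overlap could belong to either. The other members lie on other chromosomes.

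The libraries were shallow: totals ran from 250409 to 351693 counts, so 1 count was worth between 2.92 and 3.93 CPM (counts scaled to library size by TMM). S_PXT1 and S_PXT1_K118R had counts in 7393 and 7044 genes, and the other 3 libraries in 11492 to 11712. Of 10 markers of pro-B and early B cells, 8 (among them CD79A, VPREB1 and RAG1) were at 0 in every library and the list summed to at most 1 count in any library, so the early B cell markers of the labelled cell type were at or near 0 in this table. Markers of interleukin-3 dependent blood cells (6 genes matched) summed to 122, 139, 128, 195 and 32 counts in PMSCV, S_PXT1, S_PXT1_K118R, WT and WT_K118R. SPI1 alone gave 113, 139, 128, 173 and 1 of these, and the receptor gene IL3RA was at 0 in every library. Markers of other tissues were higher in the 3 libraries with more genes: squamous epithelium markers summed to 288, 993 and 506 counts in PMSCV, WT and WT_K118R, against 0 in both S_PXT1 libraries, and plasma cell markers to 636, 425 and 22 against 2 and 2. Smooth muscle markers summed to 72, 316 and 13 against 1 and 6, prostate markers to 86, 99 and 108 against 1 and 0, and fibroblast markers to 437, 453 and 587 against 187 and 195. Neuron markers summed to at most 4 counts and testis markers to 0 in every library. The part of these markers in the tubulin values was not tested; where a tubulin gene moved with or against them, that is said beside it.

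Levels of the genes were compared per length, by the deposited FPKM. No source used here gives the lengths behind it. Counts over FPKM give relative lengths from 2076 for TUBB2A to 10861 for TUBB6, whose mouse transcripts are 1610 and 1758 bases. The order between genes therefore depends on lengths that could not be checked. In PMSCV the order was TUBA1C at 1433 FPKM, TUBA1B at 364, TUBA1A at 200, TUBB4B at 136, TUBG1 at 57.8, TUBB at 52.0 and TUBA4A at 26.3, with TUBB6 at 0.690 and TUBA8 and TUBB2A at 0. The same order of the first 7 genes held in every library but WT_K118R, where TUBA1A (4.21 FPKM) came after TUBA4A (21.0). Counting intervals of neighbours overlapped for TUBG1 and TUBB in every library but S_PXT1, and for TUBA1A and TUBB4B in S_PXT1_K118R (187 and 149 FPKM). TUBA1C was the highest tubulin in all 5 libraries, by the least in S_PXT1, where it stood at 569 FPKM against 470 for TUBA1B.

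**Figure D1:**
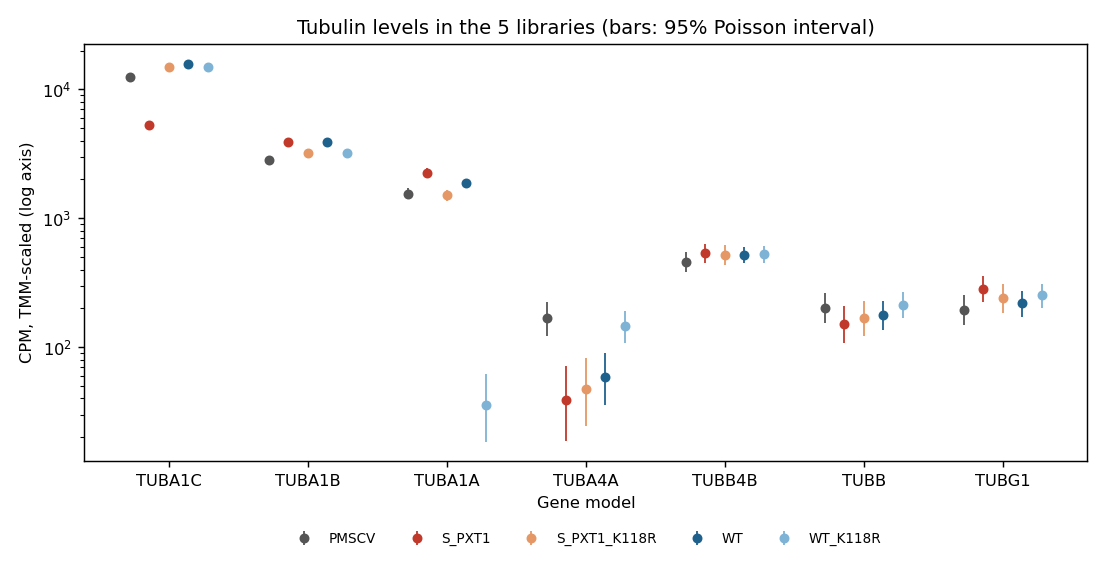
TMM-scaled level in CPM (log axis) of the 7 tubulin gene models that average 20 or more counts, 1 point per library, with the exact 95% Poisson interval as a bar. TUBA1C stands lower in S_PXT1 (5247 CPM) than in the other 4 libraries, and TUBA1A is far lower in WT_K118R (35.6 CPM) than elsewhere.

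TUBA1C, a broadly expressed alpha tubulin, had 3489, 1346, 3808, 5332 and 5043 counts in PMSCV, S_PXT1, S_PXT1_K118R, WT and WT_K118R. As TMM-scaled levels these were 12407, 5247, 14970, 15593 and 14946 CPM, so 4 libraries lay close together and S_PXT1 lay below them all. In S_PXT1 the level was 2.36-fold lower than in PMSCV (95% interval 2.22 to 2.52). It was also 2.97-fold lower than in WT (2.80 to 3.16). S_PXT1_K118R stood 2.85-fold above S_PXT1 (2.68 to 3.04) and level with WT_K118R, at a ratio of 1.002 (0.960 to 1.04). Within WT, the K118R form had 0.958 of the level (0.922 to 0.996), and WT over PMSCV was 1.26 (1.20 to 1.31). S_PXT1_K118R had, like S_PXT1, a low gene number and lower sums of other-tissue markers than the other 3 libraries. Its TUBA1C was not low. The part of gene number and of these markers in the TUBA1C values was not tested.

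TUBA1A, the alpha tubulin best known from developing neurons and from brain malformations when mutated, had 437, 578, 383, 640 and 12 counts in the same order of libraries. The levels were 1554, 2253, 1506, 1872 and 35.6 CPM. A single library, WT_K118R, was thus low, and it was 52.6-fold below WT (29.9 to 102). S_PXT1_K118R exceeded WT_K118R by 42.3-fold (24.0 to 82.7). Among the other libraries the ratios were modest: 1.45 for S_PXT1 over PMSCV (1.28 to 1.65), 1.20 for WT over PMSCV (1.06 to 1.36), 1.20 for S_PXT1 over WT (1.07 to 1.35) and 0.668 for S_PXT1_K118R over S_PXT1 (0.586 to 0.762). Of the marker lists above, the sums of plasma cell and smooth muscle markers were also lower in WT_K118R than in PMSCV and WT. The sum of interleukin-3 dependent blood cell markers was lower too, but through SPI1 (113, 173 and 1 counts in PMSCV, WT and WT_K118R). In the same list CD44 was highest in WT_K118R (6, 16 and 27 counts), and PTPRC had 2, 6 and 3. Squamous markers lay between those of PMSCV and WT, and prostate and fibroblast markers above both. Their part in the TUBA1A value was not tested.

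TUBA1B, the alpha tubulin of most dividing cells, moved little: 792, 993, 817, 1345 and 1089 counts in PMSCV, S_PXT1, S_PXT1_K118R, WT and WT_K118R, or 2816, 3871, 3212, 3933 and 3227 CPM. S_PXT1 and WT were highest and near each other (ratio 0.984, 0.906 to 1.07), and so were the 2 K118R libraries (ratio 0.995, 0.908 to 1.09). S_PXT1 over PMSCV was 1.37 (1.25 to 1.51) and WT over PMSCV 1.40 (1.28 to 1.53). Both K118R libraries stood a little lower than their counterparts, at 0.830 in S_PXT1 (0.755 to 0.911) and 0.821 in WT (0.757 to 0.889). TUBA1B was thus near its WT level in the library where TUBA1C was low, and near its S_PXT1_K118R level in the library where TUBA1A was nearly absent.

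Ratios of counts within 1 library do not depend on scaling. TUBA1A over TUBA1B was 0.552 in PMSCV, 0.582 in S_PXT1, 0.469 in S_PXT1_K118R and 0.476 in WT, against 0.0110 in WT_K118R (0.00568 to 0.0193). TUBA1C over TUBA1B was 4.41, 4.66, 3.96 and 4.63 in PMSCV, S_PXT1_K118R, WT and WT_K118R, against 1.36 in S_PXT1 (1.25 to 1.47). Each ratio therefore had 1 library out of place, a different one, and TUBA1B was in place in both.

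TUBA4A, an alpha tubulin that is encoded without the usual last tyrosine and is abundant in platelets, had 47, 10, 12, 20 and 49 counts in that order of libraries (167, 39.0, 47.2, 58.5 and 145 CPM). PMSCV and WT_K118R were high and the other 3 low. S_PXT1 was 4.29-fold (2.14 to 9.52) and WT 2.86-fold (1.66 to 5.09) below PMSCV, while WT_K118R was 2.48-fold above WT (1.45 to 4.41). S_PXT1_K118R was 3.08-fold below WT_K118R (1.61 to 6.36). The intervals of S_PXT1 over WT (0.279 to 1.49) and of S_PXT1_K118R over S_PXT1 (0.479 to 3.13) included 1. Fibroblast and prostate markers were also highest in WT_K118R, plasma cell markers were highest in PMSCV, and squamous and smooth muscle markers were highest in WT; their part in the TUBA4A values was not tested. TUBA8, an alpha tubulin known from testis, muscle and brain, was at 0 in every library, which allows at most 3 counts each, or between 8.77 and 11.8 CPM.

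Summed over the 5 genes, alpha tubulin had 4765, 2927, 5020, 7337 and 6193 counts in PMSCV, S_PXT1, S_PXT1_K118R, WT and WT_K118R. Alpha tubulin was 1.79%, 1.13%, 2.0%, 2.09% and 1.78% of all counts, so S_PXT1 was low also as a share of the whole library. The summed level in S_PXT1 (11411 CPM) was 0.673 of that in PMSCV (16945 CPM), with an interval of 0.643 to 0.705, and 0.532 of that in WT (21457 CPM; 0.509 to 0.555). S_PXT1_K118R (19735 CPM) was 1.73-fold above S_PXT1 (1.65 to 1.81) and 1.08-fold above WT_K118R (1.04 to 1.12). WT_K118R (18354 CPM) was 0.855 of WT (0.827 to 0.885), and WT over PMSCV was 1.27 (1.22 to 1.31).

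The arithmetic of the sums shows what the other alpha genes did. From PMSCV to S_PXT1, TUBA1C was lower by 7160 CPM, and TUBA1A and TUBA1B were higher by 699 and 1055 CPM. From WT to S_PXT1, TUBA1C was lower by 10346 CPM, while TUBA1A was higher by 382 CPM and TUBA1B was lower by 62.2 CPM. From WT to WT_K118R, TUBA1A was lower by 1836 CPM, TUBA1B was lower by 706 CPM and TUBA1C was lower by 647 CPM. The only alpha gene that was higher in that last comparison was TUBA4A, by 86.7 CPM. Without TUBA1C, the alpha sum of S_PXT1 was 1.36 times that of PMSCV and 1.05 times that of WT (0.983 to 1.12).

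**Figure D2:**
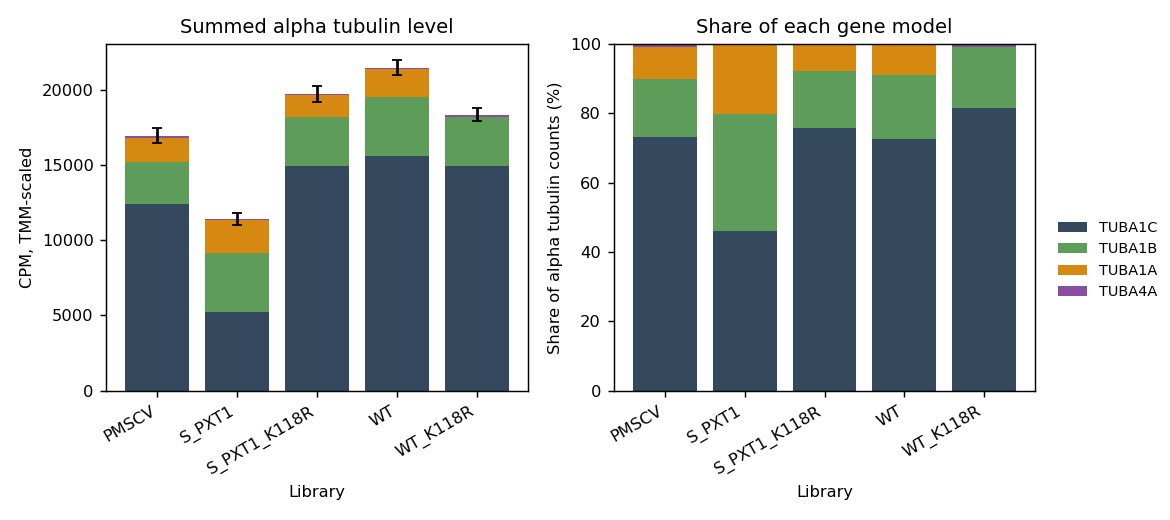
Left, summed alpha tubulin level in CPM per library, stacked by gene, with the exact 95% Poisson interval of the sum as a bar; right, share of each gene in the alpha tubulin counts in percent. The sum is lowest in S_PXT1 (11411 CPM), where the TUBA1C block is short, and the TUBA1A block cannot be seen in WT_K118R (0.194%).

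As a share of alpha tubulin counts, TUBA1C made up 46.0% in S_PXT1 (Clopper-Pearson 95% interval 44.2 to 47.8), and 73.2%, 75.9%, 72.7% and 81.4% in PMSCV, S_PXT1_K118R, WT and WT_K118R. TUBA1B made up 33.9% in S_PXT1 (32.2 to 35.7) and between 16.3% and 18.3% elsewhere. TUBA1A made up 19.7% in S_PXT1 (18.3 to 21.2), 0.194% in WT_K118R (0.10 to 0.338), and between 7.63% and 9.17% in the other 3. These higher shares of TUBA1A and TUBA1B in S_PXT1 were over a smaller sum. Once TUBA1C was left out, TUBA1B made up 62.8% of the rest in S_PXT1 against 62.1% in PMSCV, and TUBA1A 36.6% against 34.2%. TUBA4A made up 0.633% of the rest in S_PXT1 (0.304 to 1.16) against 3.68% in PMSCV (2.72 to 4.87).

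The beta tubulins were far lower in counts and nearly level across libraries. TUBB4B, a broadly expressed beta tubulin that is also found in cilia, had 129, 137, 133, 178 and 177 counts in PMSCV, S_PXT1, S_PXT1_K118R, WT and WT_K118R (459, 534, 523, 521 and 525 CPM). Its ratio lay between 0.979 and 1.16 in the 6 comparisons, and every interval included 1. TUBB, the main beta tubulin of dividing cells in many tissues, had 57, 39, 43, 61 and 72 counts (203, 152, 169, 178 and 213 CPM). PMSCV and WT_K118R were highest, but the ratios (0.750 to 1.20) all had intervals that included 1. TUBB6, a divergent beta tubulin, had 2, 1, 0, 4 and 5 counts, and TUBB2A, best known from brain, 0, 0, 1, 1 and 1. Both were at or near the floor of 3 counts. Even for TUBB6 in S_PXT1_K118R over WT_K118R, at 0 against 5 counts, the interval (0 to 1.45) included 1.

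The beta sum was 188, 177, 177, 244 and 255 counts, or 669, 690, 696, 714 and 756 CPM. Its ratio lay between 0.921 and 1.07, and all 6 intervals included 1. For S_PXT1 over PMSCV the ratio was 1.03 for beta and 0.673 for alpha, so counts of alpha per count of beta went from 25.3 in PMSCV to 16.5 in S_PXT1. In S_PXT1_K118R, WT and WT_K118R they were 28.4, 30.1 and 24.3. These ratios compare counts of different models and are not the ratio of alpha to beta mRNA. TUBB4B held 68.6% of the beta counts in PMSCV, 77.4% in S_PXT1 and between 69.4% and 75.1% in the others, with overlapping intervals throughout (61.5 to 75.2 in PMSCV and 70.5 to 83.3 in S_PXT1).

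TUBG1, the gamma tubulin of the ring complex, had 55, 73, 61, 75 and 85 counts in the same order of libraries (196, 285, 240, 219 and 252 CPM). S_PXT1 was the highest and PMSCV the lowest, at a ratio of 1.46 whose interval only just left out 1 (1.01 to 2.10). The other 5 ratios were between 0.843 and 1.30, with intervals that included 1. RETREG3 overlaps TUBG1 by 948 bases on the opposite strand in the table's coordinates and had 1, 31, 17, 3 and 29 counts, so it was highest in S_PXT1 and WT_K118R and low in PMSCV and WT; its part in the TUBG1 value was not tested.

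**Figure D3:**
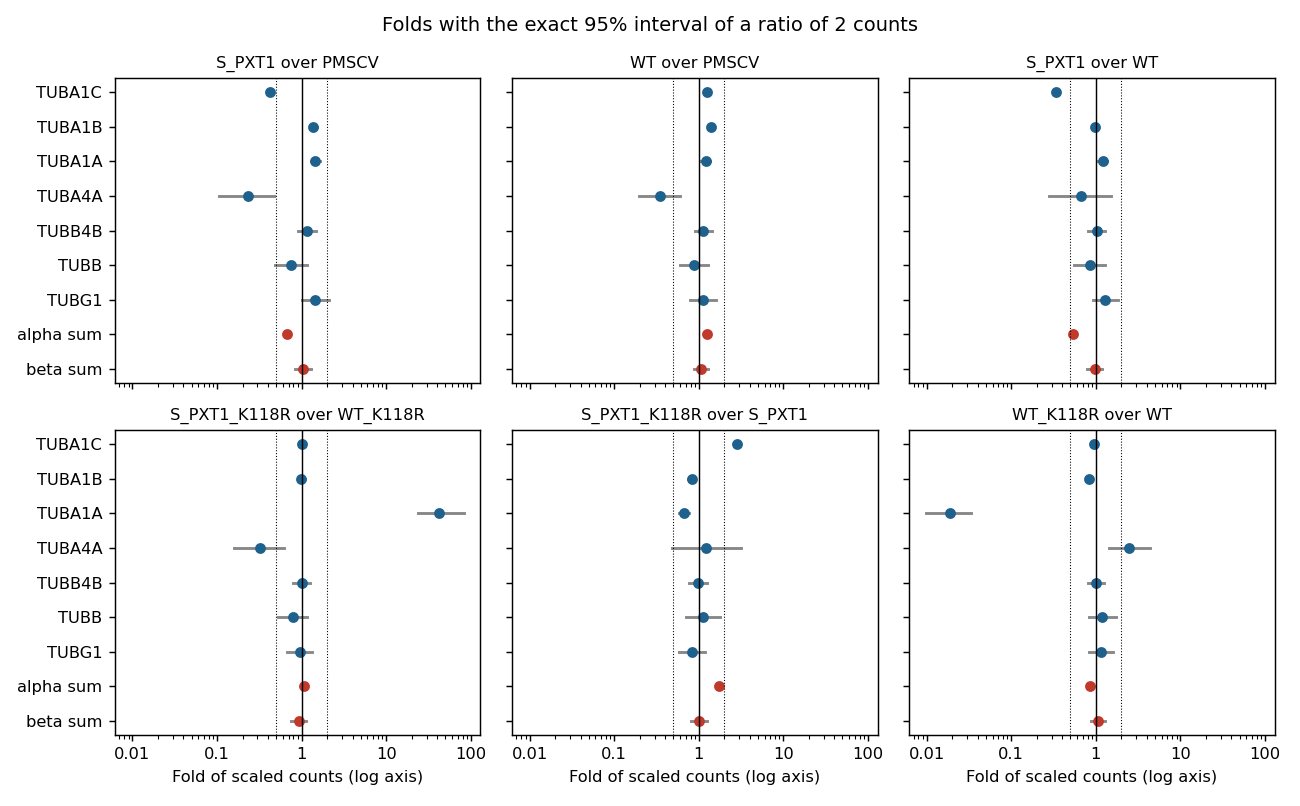
Ratio of TMM-scaled counts (log axis) of 7 tubulin genes (blue) and of the alpha and beta sums (red) in the 6 comparisons, with the exact 95% interval of a ratio of 2 counts as a bar; dotted lines mark 2-fold. TUBA1C lies past 2-fold in the 3 comparisons that include S_PXT1, TUBA1A in both that include WT_K118R, and no beta interval leaves out 1.

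Counts of members past a 2-fold difference were read against the same count over all genes. The measure was the log2 of CPM + 1, for genes that average 1 CPM or more, which 9 of the 10 members and 13352 genes did. For S_PXT1 over PMSCV, 2 members were lower (TUBA1C and TUBA4A) and none higher, where 52.5% of all genes were past 2-fold (43.8% lower and 8.64% higher). For WT over PMSCV, 1 was lower (TUBA4A) and 1 higher (TUBB2A, at 1 count against 0), where 43.5% of all genes were (23.2% lower, 20.3% higher). For S_PXT1 over WT, 3 were lower (TUBA1C, TUBB2A and TUBB6), where 51.5% were (42.5% lower, 9.02% higher). S_PXT1_K118R over WT_K118R had 1 higher (TUBA1A) and 2 lower (TUBA4A and TUBB6), where 53% were (44% lower, 8.94% higher). S_PXT1_K118R over S_PXT1 had 2 higher (TUBA1C and TUBB2A) and 1 lower (TUBB6), where 32.8% were (17.6% lower, 15.2% higher). WT_K118R over WT had 1 higher (TUBA4A) and 1 lower (TUBA1A), where 40.1% were (20.9% lower, 19.2% higher). The members' shares (2 or 3 of 9) were thus near or below the share of all genes, most of which had few counts. The median log2 ratio of the 9 members was between -0.23 and 0.27, and that of all genes between -0.56 and 0.01.

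With only the 1547 genes that average 20 counts or more, the shares past 2-fold in these 6 comparisons were 11.3%, 5.37%, 10.1%, 10.6%, 8.14% and 5.3%, and of the 7 members among them 2, 1, 1, 2, 1 and 2 were past it.

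Counting noise is smaller in the 505 genes that average 100 counts or more, to which TUBA1A, TUBA1B, TUBA1C and TUBB4B belonged; both limits were chosen after the values were seen. Among these genes, 3.76% were past 2-fold in S_PXT1 over PMSCV, 3.37% in S_PXT1 over WT, 3.17% in S_PXT1_K118R over S_PXT1, and TUBA1C was among them each time. In WT_K118R over WT 2.18% were, and in S_PXT1_K118R over WT_K118R 4.95%, with TUBA1A among them both times. In WT over PMSCV 1.39% were, and no tubulin. S_PXT1 and WT_K118R were then looked at because TUBA1C and TUBA1A had been seen to be low there. Both genes were therefore bound to be found, and the shares below are description only. Of the 505 genes, 2 (0.396%) were at least 2-fold lower in S_PXT1 than in each of the other 4 libraries. These were TUBA1C, at 2.36-fold below the next lowest on the log2(CPM + 1) scale, and RPN2, a subunit of the oligosaccharyltransferase. RPN2 had 6 counts against 110 to 191. In WT_K118R, 7 of the 505 (1.39%) were at least 2-fold lower than in each of the other 4 libraries. TUBA1A had the second largest gap there, 41.2-fold below the next lowest library on the log2(CPM + 1) scale (42.3-fold as a ratio of scaled counts). The other 6 were SPI1, TAF9, MATR3, CITED2, SRSF7 and KDM2A.

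**Figure D4:**
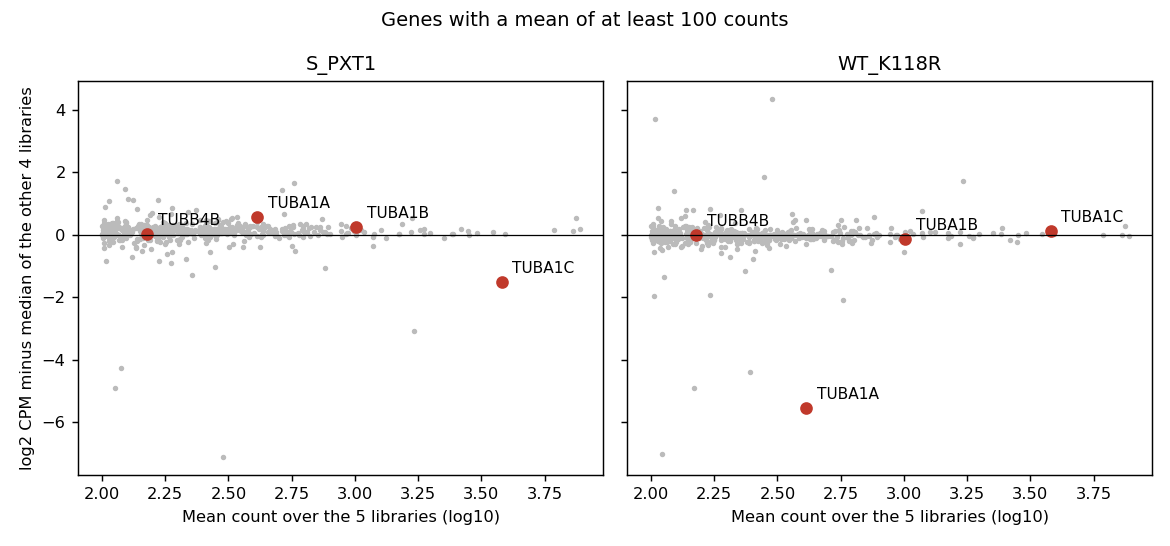
For the 505 genes that average 100 counts or more, the difference between S_PXT1 (left) or WT_K118R (right) and the median of the other 4 libraries (log2 CPM), against the mean count (log10); grey points are single genes and red points the 4 tubulins. TUBA1C lies low on the left and TUBA1A on the right, and TUBB4B and TUBA1B lie in the band of the other genes in both.

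Genes whose pattern over the 5 libraries was most like that of a tubulin were ranked by the root mean square difference of log2(CPM + 1), centred on each gene's own mean, over the 500 genes that average 100 counts or more, have a symbol of their own in the table and are not tubulins. The measure is in log2 units, a description over 5 points that share their libraries. For TUBA1A the closest were TAF9, a subunit of general transcription factor complexes (0.33; 169, 180, 168, 216 and 7 counts), and SPI1, the blood cell transcription factor PU.1 (0.56; 113, 139, 128, 173 and 1). CITED2, a coregulator that binds CBP and p300, followed at 1.33. The median over all 500 genes was 2.25, and TUBA1A's own spread was also 2.25. For TUBA1B they were CHIC2, HDGF and BAG6, at 0.02 to 0.04 against a median of 0.19. For TUBA1C no gene was close: USP9X, COL3A1 and EEF2 were at 0.38, 0.39 and 0.41, where TUBA1C's own spread was 0.59. RAB21, VARS1 and MACROH2A1, at 0.03, were closest to TUBB4B, whose own spread was 0.08.

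**Figure D5:**
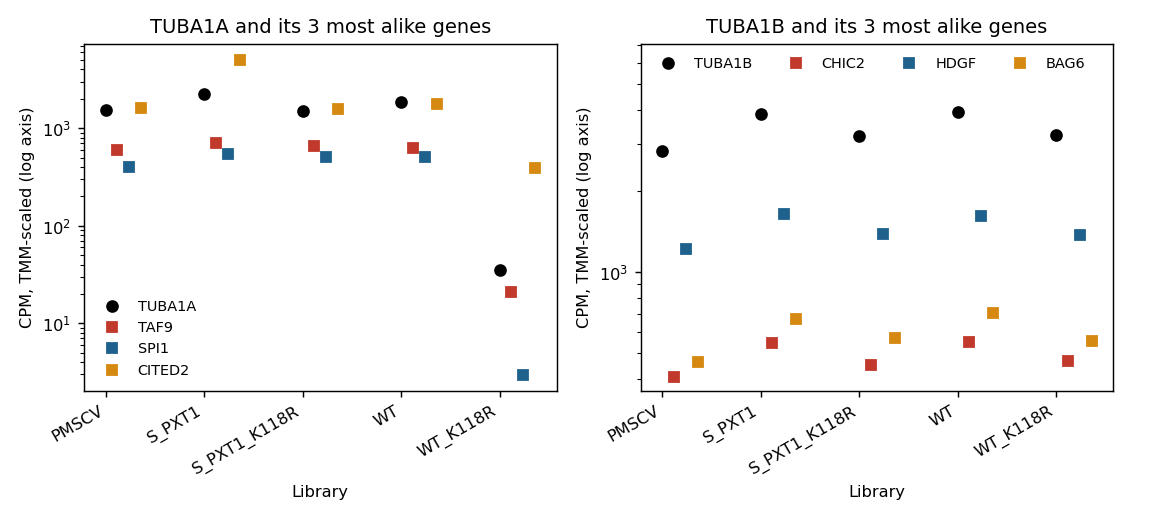
TMM-scaled level in CPM (log axis) of TUBA1A (left) and TUBA1B (right), in black, and of the 3 genes with the most alike pattern, in colour, in the 5 libraries. TAF9 and SPI1 share the low value of TUBA1A in WT_K118R (7 and 1 counts), and CHIC2, HDGF and BAG6 track TUBA1B.

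Other tubulin models did not hold the missing counts. The table has 53 further models with a tubulin symbol, of which 30 were at 0 in every library. The 11 further alpha models, pseudogenes included, summed to 69, 67, 53, 96 and 77 counts in PMSCV, S_PXT1, S_PXT1_K118R, WT and WT_K118R, nearly all from the pseudogene TUBAP2 (68, 66, 53, 94 and 75). The 38 further beta models summed to 15, 14, 15, 16 and 18. A model antisense to TUBA1C, AC125611.3, had 0, 8, 3, 4 and 0 counts, so it held more in S_PXT1 than elsewhere, but far fewer than the counts by which TUBA1C was lower.

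The machinery around tubulin was read from 112 genes in 8 lists, 1 of which held 13 other tubulin genes. Of the 112 genes, 103 averaged 1 CPM or more and only 15 averaged 20 counts or more. Of the 103, 51 were at least 2-fold lower and 5 higher in S_PXT1 over PMSCV, 47 and 9 in S_PXT1 over WT, and 48 and 11 in S_PXT1_K118R over WT_K118R. Over all genes 43.8%, 42.5% and 44% were lower in these first 3 comparisons, which is near the lists' shares, and 8.64%, 9.02% and 8.94% were higher. Within a construct, 20 were lower and 19 higher in S_PXT1_K118R over S_PXT1 (17.6% and 15.2% of all genes). In WT_K118R over WT 18 were lower and 14 higher (20.9% and 19.2% of all genes). WT over PMSCV gave 22 lower and 15 higher (23.2% and 20.3% of all genes). Of the 15 with more counts, at most 2 were past 2-fold in any comparison. Of all genes that average 20 counts or more, 5.3% to 11.3% were.

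The gamma tubulin complex and its anchors, partners of TUBG1, summed to 53, 6, 26, 52 and 68 counts over 12 genes, in the order of libraries used above. S_PXT1 was 0.124 of PMSCV (0.0436 to 0.288). Of the 12 genes, 5 had a count in S_PXT1 and 5 in S_PXT1_K118R, against 11, 7 and 12 in PMSCV, WT and WT_K118R. Both S_PXT1 libraries also had the lower gene numbers and lower sums of other-tissue markers, whose part here was not tested. Within the list, TUBGCP4, a subunit of the ring complex, had 20, 1, 20, 28 and 36 counts, so it gave 20 of the 26 in S_PXT1_K118R. With 1 count in S_PXT1, its ratio of S_PXT1_K118R to S_PXT1 was 20.2, with a counting interval of 3.23 to 836. TUBG1 itself was not low in S_PXT1.

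Tubulin folding factors, the CCT chaperonin, prefoldin and the tubulin cofactors that make new dimers, summed to 347, 282, 234, 404 and 400 counts over 20 genes. TCP1, a chaperonin subunit, gave 101, 112, 108, 157 and 166 of these counts. Of the 20 genes, 20, 12, 15, 19 and 15 had a count, in that order of libraries. The summed ratio of S_PXT1 to PMSCV was 0.891 (0.759 to 1.05) and of S_PXT1_K118R to WT_K118R 0.776 (0.658 to 0.914). CCT7, another chaperonin subunit, was 2.05-fold lower in S_PXT1_K118R (14 counts) than in S_PXT1 (29), with an interval that only just left out 1 (1.05 to 4.21). The intervals of CCT4 in WT over PMSCV (0.323 to 1.08) and of CCT3 in WT_K118R over WT (0.820 to 1.9) included 1. The autoregulation list (TTC5, SCAPER and 4 subunits of CCR4-NOT) summed to 777, 863, 892, 1145 and 1090 counts over 6 genes, nearly all from CNOT1, the CCR4-NOT scaffold (743, 829, 863, 1107 and 1051). The summed ratio of the list was 1.22 in S_PXT1 over PMSCV (1.10 to 1.34) and 1.005 in S_PXT1 over WT (0.919 to 1.10). TTC5 had 1, 0, 2, 2 and 1 counts and SCAPER 5, 2, 0, 1 and 0, at or near the floor. The part of autoregulation in the tubulin values was not tested.

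Among proteins that work on microtubules, DYNC1H1, the heavy chain of cytoplasmic dynein, had 40, 8, 12, 37 and 43 counts. It was 4.56-fold lower in S_PXT1 than in PMSCV (2.11 to 11.3) and low in both S_PXT1 libraries. CKAP5, a microtubule polymerase, had 30, 26, 14, 60 and 66 counts and was 3.55-fold lower in S_PXT1_K118R than in WT_K118R (1.98 to 6.85). KIF2A, a kinesin that takes microtubules apart, had 43, 76, 55, 65 and 78 counts and was 1.94-fold higher in S_PXT1 than in PMSCV (1.32 to 2.89). DYNC1H1 was low in the 2 libraries with the lower sums of other-tissue markers, and the part of those markers in it was not tested. AGBL5, a deglutamylase of tubulin, had 15, 25, 24, 30 and 20 counts, with an interval that included 1 in each comparison in which it was named by the rule. The modification list over 16 genes summed to 55, 42, 41, 80 and 67 counts, and the stabilisers and plus-end proteins over 15 genes to 181, 121, 95, 241 and 237. The destabilisers over 11 genes summed to 72, 85, 73, 89 and 107, most of it from KIF2A. Of these 11 genes, 7, 3, 5, 9 and 10 had a count.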

How the data were processed

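RNA was sequenced from 5 libraries of 1 cell line, 1 per group. Per the labels' protocols, RNA was extracted with Trizol. FastQC, HISAT2 2.2.1 and cutadapt 1.9 are named, without role, per the submitters' processing notes; no source used here gives the counter, strand setting, build or annotation. The authors deposited raw counts and FPKM for 50867 human gene models, although the cells are from mouse. Counts were scaled here by TMM (edgeR 4.0.16, R 4.3.3) over all 5 libraries and written as CPM. Levels carry exact Poisson intervals, ratios the exact 95% interval of a ratio of 2 counts, and shares Clopper-Pearson intervals. Intervals and the floor of 3 counts cover counting error only, because each group is 1 library. Without molecular identifiers reads are not single molecules, so even counting error may be understated. Calls of 2-fold used log2(CPM + 1) over genes that average 1 CPM or more, a pseudocount that understates low genes. No test across genes was possible with 1 library per group. The deposited FPKM served to compare genes per length. The members and lists were chosen with earlier results of these data known. All members are described. From the lists, the genes named averaged 20 counts or more and had the 2 lowest or 2 highest ratios in a comparison. For each tubulin averaging 100 counts or more, the 3 genes with the most alike pattern were named. TCP1, TTC5 and SCAPER were named outside these rules. Alternatives were total-count scaling, DESeq2 1.42.0 size factors, other thresholds and pseudocounts, other sums of models and the FPKM. The interval code was checked on simulated data. The 6 comparisons share libraries, so their values are not independent. Coding sequence of the alpha genes is not reported here.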

Additional observations from a re-analysis of the deposited data

Results flagged for a closer look

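The K118R change went with opposite differences in the 2 constructs for TUBA1C and for the alpha sum. TUBA1C was 2.85-fold higher in S_PXT1_K118R than in S_PXT1 and 0.958 of the WT level in WT_K118R. The alpha sum was 1.73-fold higher in the first pair and 0.855 in the second. The difference between the constructs was not tested, since each group is 1 library. The WT value for TUBA1C was close to 1, and with DESeq2 size factors it was 0.970, with an interval (0.933 to 1.01) that included 1. The WT value for the alpha sum contained the low TUBA1A of WT_K118R; without TUBA1A it was 0.935 (0.903 to 0.968), and the S_PXT1 value was 1.99.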

How the results depend on the processing

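No direction of a called value reversed under the alternatives run. With total-count scaling, TUBA1C moved beyond its counting interval in WT over PMSCV (1.16) and in S_PXT1_K118R over WT_K118R (1.048). The alpha sum moved beyond its counting interval with total-count scaling in S_PXT1 over PMSCV (0.633), WT over PMSCV (1.17) and S_PXT1_K118R over WT_K118R (1.13), and with DESeq2 size factors in S_PXT1 over WT (0.557) and S_PXT1_K118R over WT_K118R (1.12); the cause was not tested. The count of members past the threshold went to 1 at 3-fold in S_PXT1 and in WT over PMSCV, in S_PXT1 over WT and in WT_K118R over WT, and to 1 with a pseudocount of 5 CPM in WT over PMSCV, S_PXT1 over WT and S_PXT1_K118R over S_PXT1. Keeping only the 7 members that average 20 counts or more, chosen after seeing the data, also gave 1 in these last 3, since TUBB2A and TUBB6 then drop out. The TUBA1C share by FPKM, which divides by length, was 70.8%, 43.2%, 73.7%, 70.4% and 79.5% in PMSCV, S_PXT1, S_PXT1_K118R, WT and WT_K118R, and over all models with an alpha symbol 80.4% in WT_K118R. No paired analysis was possible because each group has 1 library. Depth limits TUBA8, TUBB2A and TUBB6, which had at most 5 counts, and TUBA4A in S_PXT1, at 10.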
